A study of Homo sapiens with 4 samples.

Results

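Imprinted genes are expressed mainly from the chromosome inherited from one parent. Of the 25559 gene symbols measured in HGC-27 cells, 10 widely studied imprinted genes are described here, listed by name. They were H19, MEG3, PEG3, PEG10, MEST, CDKN1C, PHLDA2, GRB10, PLAGL1 and NDN. HGC-27 is an established human gastric cancer cell line. Poly(A) RNA was sequenced from 2 libraries of control cells, labelled wildtype, and 2 libraries of RUNX3 knockout cells, labelled RUNX3KO. The comparison asks which genes change with the loss of RUNX3, a Runt domain transcription factor. For the knockout (KO), a lentiviral plasmid carried Cas9 and a guide to exon 3 of RUNX3, and cells were selected with puromycin and grown from single cells. The number of clones, and whether the 2 libraries of a group were separate cultures, is not stated in the sources used here, so p-values measure only the spread between these libraries, which may be technical. A difference between clones and an effect of the RUNX3 deletion cannot be told apart in this design.

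An imprint is a mark of DNA methylation, laid down in the egg or the sperm, that the embryo keeps through the wave of demethylation after fertilisation. Imprinted genes lie in clusters, and one methylated control region can govern several of them. Many of these genes act on growth of the fetus and placenta, and their expression is often lost or relaxed in tumours. Reads summed over both parental copies were counted here, so the values say how much RNA was present and not which parental copy it came from.

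Reads assigned to genes numbered 11731401 and 11733407 for control and 11898276 and 12110876 for RUNX3 KO. RUNX3 itself had 351 and 308 counts in control cells against 225 and 185 in RUNX3 KO cells, giving a log2 fold change of -0.70 ± 0.0961 (SE, n = 2 and 2 libraries; edgeR quasi-likelihood test, adjusted p = 1.43e-09). Without RUNX3 KO replicate 2 that adjusted p was 0.0649. By the study's methods, the deletion was also checked on protein after cloning. Of 12 markers of gastric epithelium, 9 had at most 3 counts in every library, including the defining EPCAM, CLDN18 and TFF1, and the summed level of all 12 was 2.80 to 3.05 CPM (counts scaled to library size) in control and 8.81 to 10.6 CPM in RUNX3 KO libraries, mostly from KRT8 and CDH1. Their part in the results for imprinted genes was not tested. No library had more than 10 counts for any of 6 markers of blood and endothelial cells. Counts of the replicates differed by little more than sampling noise, with a chi-square per degree of freedom of 1.22 between the control libraries and 1.18 between the RUNX3 KO libraries, against 16.9 to 17.4 between libraries of different groups.

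H19 rose and PEG10 fell in RUNX3 KO cells, and no member was switched on or off between the groups. Enough reads for a test were present for 4 of the 10 members, PEG10, GRB10, PHLDA2 and H19, against 50.7% of all symbols. Of these, PEG10 and PHLDA2 were called lower, H19 was called higher and GRB10 was not called (edgeR quasi-likelihood test, adjusted p under 0.05). Across all 12967 tested genes the same test called 48.9%, with 24.4% lower and 24.5% higher, so 3 calls among 4 tested genes is not a result about imprinted genes as a group. The median log2 fold change of the 4 tested members was -0.18, against -0.0021 over all tested genes. With a fold change of at least 2 required as well, H19 was the only member called. That rule called 6.06% of all tested genes, 3.95% lower and 2.11% higher. H19 also met the criteria of the study (2-fold or more, with p unadjusted and no higher than 0.05), which 6.12% of tested genes met. With 2 libraries a group, an exact permutation test on one gene cannot go below p = 0.333, so the fit across all genes carries the tests.

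**Figure D1:**
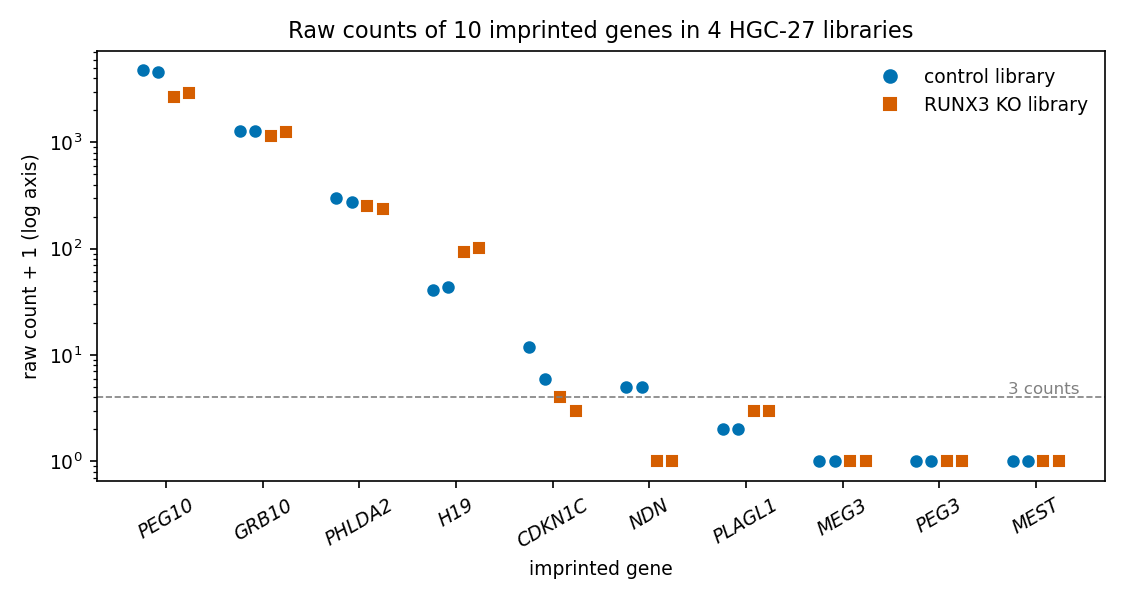
Raw read counts of the 10 imprinted genes, with 1 added and on a log axis, in each of the 2 control and 2 RUNX3 KO libraries of HGC-27 cells. PEG10 sits highest at 2676 to 4751 counts, H19 lies higher in both RUNX3 KO libraries, and MEG3, PEG3 and MEST sit at 0 counts in all 4 libraries.

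H19 is a long noncoding RNA expressed from the maternal chromosome. On hg19, the build of the deposited counts, it spans chr11:2016396-2025782 on the minus strand. It is also the host transcript of the microRNA miR-675. As the only tested member called with a fold change of at least 2, H19 is shown with the RefSeq promoter window of its one listed start, 250 bases before to 50 bases after it, at chr11:2001217-2001516 on the minus strand of GRCh38.p14. CpG pairs, the target of DNA methylation, are in capitals.
H19: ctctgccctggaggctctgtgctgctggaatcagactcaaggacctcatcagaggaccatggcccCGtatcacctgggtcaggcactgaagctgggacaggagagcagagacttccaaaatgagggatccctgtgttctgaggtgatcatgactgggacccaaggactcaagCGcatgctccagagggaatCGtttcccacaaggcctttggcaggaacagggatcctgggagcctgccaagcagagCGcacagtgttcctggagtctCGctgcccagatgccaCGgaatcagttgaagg
The window held 6 CpG, and 33.7% of the 35116 RefSeq promoter windows of this length held fewer. It contained neither TGTGGT, the core letters of RUNX sites, nor TGCCGC, the core letters of the imprint reader ZFP57, on either strand. Among all windows, 13.1% contained the former and 16.7% the latter. The CpG count and the absence of these letters hold for this window only, and no other start of H19 was examined. The 2 mature products of miR-675 are printed below with the seed, bases 2 to 8, in capitals, because H19 is their precursor.
hsa-miR-675-5p: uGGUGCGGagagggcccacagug
hsa-miR-675-3p: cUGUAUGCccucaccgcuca
Their seeds differ. The separate row for MIR675 was at 0 counts in all 4 libraries. A read on bases that it shares with H19 may be assigned to neither, and poly(A) libraries do not measure mature microRNAs.

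H19 had 40 and 43 counts in control cells, against 91 and 100 after RUNX3 KO. Both RUNX3 KO libraries lay above both control libraries. Groups did not overlap in CPM for 72.7% of tested genes. The level was 3.52 ± 0.181 CPM (SD, n = 2) in control cells. It rose 2.28-fold, to 8.01 ± 0.430 CPM (SD, n = 2), with RUNX3 KO. The log2 fold change was 1.19 ± 0.184 (SE), with a 95% interval of 0.82 to 1.55 (edgeR quasi-likelihood test, adjusted p = 4.52e-08). Under 12 alternative settings it ranged from 1.13 to 1.24 and was called in each, with a largest adjusted p of 0.0292. H19 shares no exonic base with any other symbol that was matched to GENCODE. MIR675, which lies within H19, was not matched. The pair of genes outside the imprinted lists whose levels lay closest to those of H19 over the 4 libraries were CBFA2T3, with 48 and 43 counts in control and 92 and 110 in RUNX3 KO cells, and FBN3, with 42 and 46 against 104 and 112. Their Euclidean distances to H19 on the log2(CPM + 1) scale were 0.242 and 0.245.

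IGF2, a fetal growth factor expressed from the paternal chromosome, shares a control region and enhancers with H19. It had 30 and 28 counts in control and 18 and 18 in RUNX3 KO cells, and both RUNX3 KO libraries lay below both control libraries. Its log2 fold change was -0.70 ± 0.296 (SE; edgeR quasi-likelihood test, adjusted p = 0.0432). This call did not hold in 7 of 12 alternatives, among them DESeq2 (adjusted p = 0.338), limma-voom (adjusted p = 0.0530), no filter on low counts (adjusted p = 0.0672) and the omission of any one library (adjusted p from 0.104 to 0.175). Readthrough transcripts annotated as INS-IGF2 overlap 20.4% of the exonic bases of IGF2. The ratio of H19 to IGF2 counts was 1.33 and 1.54 in control and 5.06 and 5.56 in RUNX3 KO libraries. IGF2-AS had 5, 4, 3 and 1 counts in control replicates 1 and 2 and RUNX3 KO replicates 1 and 2. INS, which encodes insulin, was at 0 counts throughout. On the other side of H19 the nearest tested gene was MRPL23, a mitochondrial ribosomal protein gene, with a log2 fold change of 0.06 (edgeR, adjusted p = 0.366).

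PHLDA2 and CDKN1C belong to the neighbouring imprinted cluster on chromosome 11, in which the long noncoding RNA KCNQ1OT1 is made from the paternal chromosome and silences its neighbours there. PHLDA2, a pleckstrin homology domain protein that restrains placental growth, lies at chr11:2949503-2950650 on the minus strand of hg19. It had 300 and 272 counts in control and 249 and 235 in RUNX3 KO cells. Both RUNX3 KO libraries were lower, at 20.3 ± 1.1 CPM (SD, n = 2) against 24.2 ± 1.67 CPM (SD, n = 2) in control. The log2 fold change was -0.25 ± 0.0930 (SE), with a 95% interval of -0.44 to -0.07 (edgeR quasi-likelihood test, adjusted p = 0.0179). The call was lost in 5 of 12 alternatives: with DESeq2 (adjusted p = 0.230), without the filter on low counts (adjusted p = 0.0830), without control replicate 1 (adjusted p = 0.200), without RUNX3 KO replicate 1 (adjusted p = 0.118) and without RUNX3 KO replicate 2 (adjusted p = 0.243). The direction held in all 12, from -0.32 to -0.18.

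CDKN1C encodes a cyclin-dependent kinase inhibitor that stops cell division during development. It lies at chr11:2904443-2907005 on the minus strand of hg19 and was close to the limit of detection, with 11 and 5 counts in control and 3 and 2 in RUNX3 KO cells. The filter on low counts removed it. Scaled to library size, the summed counts of 16 and 5 give a ratio of 3.23 of control to RUNX3 KO, with an exact 95% interval of 1.13 to 11.3 for counting error alone. With no filter, over 17650 genes, its edgeR adjusted p was 0.137. Without control replicate 2 it passed the filter only through the 11 counts of the remaining control library, so the call it then had (edgeR, adjusted p = 0.0197) is given no weight. Without RUNX3 KO replicate 1 or 2 it likewise passed only through the 11 counts of control replicate 1. Its log2 fold changes of -1.96 and -1.38 there are given no weight either.

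Among their neighbours, KCNQ1OT1 had 447 and 487 counts in control and 375 and 320 in RUNX3 KO cells, giving a log2 fold change of -0.44 ± 0.0781 (SE; edgeR quasi-likelihood test, adjusted p = 1.26e-06). Without RUNX3 KO replicate 2 its adjusted p was 0.0910. The transporter gene SLC22A18 (log2 fold change -0.03), the oxysterol-binding protein gene OSBPL5 (-0.03) and the potassium channel gene KCNQ1 (-0.41) were not called. KCNQ1 had 18 and 15 counts in control and 11 and 14 in RUNX3 KO cells. SLC22A18AS, with 7 and 17 against 10 and 10 counts, was not tested, and KCNQ1DN was at 0 counts. NAP1L4, the nearest tested gene on the other side of PHLDA2, had a log2 fold change of 0.03 (edgeR, adjusted p = 0.446).

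PEG10 is expressed from the paternal chromosome and derives from the gag and pol genes of an ancient retrotransposon. Its protein is needed to form the placenta. On hg19 it spans chr7:94285637-94299007 on the plus strand. PEG10 had 4751 and 4552 counts in control and 2676 and 2894 in RUNX3 KO cells, the most reads of the 10 members in every library. Both RUNX3 KO libraries lay below both control libraries. The level fell from 394 ± 11.8 CPM (SD, n = 2) to 234 ± 9.90 CPM (SD, n = 2), and was 1.69-fold lower. The log2 fold change was -0.75 ± 0.0309 (SE), with a 95% interval of -0.81 to -0.69 (edgeR quasi-likelihood test, adjusted p = 2.85e-38). Under 12 alternatives it ranged from -0.80 to -0.71 and was called in each. PEG10 accounted for most of the change in the summed level of the 10 members, which was 541 and 520 CPM in control and 353 and 373 CPM in RUNX3 KO libraries.

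SGCE, encoding epsilon-sarcoglycan, shares with PEG10 a bidirectional promoter region and paternal expression. SGCE had 236 and 249 counts in control and 206 and 198 in RUNX3 KO cells, giving a log2 fold change of -0.28 ± 0.100 (SE; edgeR quasi-likelihood test, adjusted p = 0.0166). The call was lost in 4 of 12 alternatives: with DESeq2 (adjusted p = 0.223), without control replicate 2 (0.110), and without RUNX3 KO replicate 1 (0.0882) or 2 (0.150). The ratio of PEG10 to SGCE counts was 20.1 and 18.3 in control and 12.99 and 14.62 in RUNX3 KO libraries. PPP1R9A, encoding a neuronal actin-binding protein, had 10 and 24 counts in control and 4 and 7 in RUNX3 KO cells, giving a log2 fold change of -1.62 ± 0.461 (SE; edgeR quasi-likelihood test, adjusted p = 0.00213). It passed the filter on low counts only through the control group, where it was high, so its call is given no weight. It was not called in 5 of 11 alternatives, and without control replicate 2 its log2 fold change was -0.86. TFPI2, a protease inhibitor, had 18, 9, 5 and 3 counts and CALCR, the calcitonin receptor, 3, 4, 2 and 0, in the order of control replicates 1 and 2 and RUNX3 KO replicates 1 and 2, and neither was tested.

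Some genes near PEG10 that are not imprinted were also lower in RUNX3 KO cells. Within 1000 kb, 7 genes were tested, of which 4 were lower, 1 was higher and 2 were not called, where 24.4% of all tested genes were lower. PPP1R9A and COL1A2 passed the filter on low counts only through the control group, so nothing is read from the count of 4. Besides SGCE and PPP1R9A, the lower genes were the collagen chain COL1A2, with 1973 and 2030 counts in control and 1 and 5 in RUNX3 KO cells, and the G protein subunit GNG11, with 521 and 530 against 243 and 228, both named after their values were seen. PON2 was the gene called higher, with a log2 fold change of 0.19 (edgeR, adjusted p = 0.00813). Over the 40 tested genes nearest to PEG10, 20 on each side, the median log2 fold change was -0.0029, with 9 called lower and 9 higher. COL1A2, GNG11 and PPP1R9A were the 3 of these 40 with a log2 fold change at or below that of PEG10, and of them GNG11 alone had enough counts in both groups to pass the filter. Their part in the result for PEG10 was not tested.

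**Figure D2:**
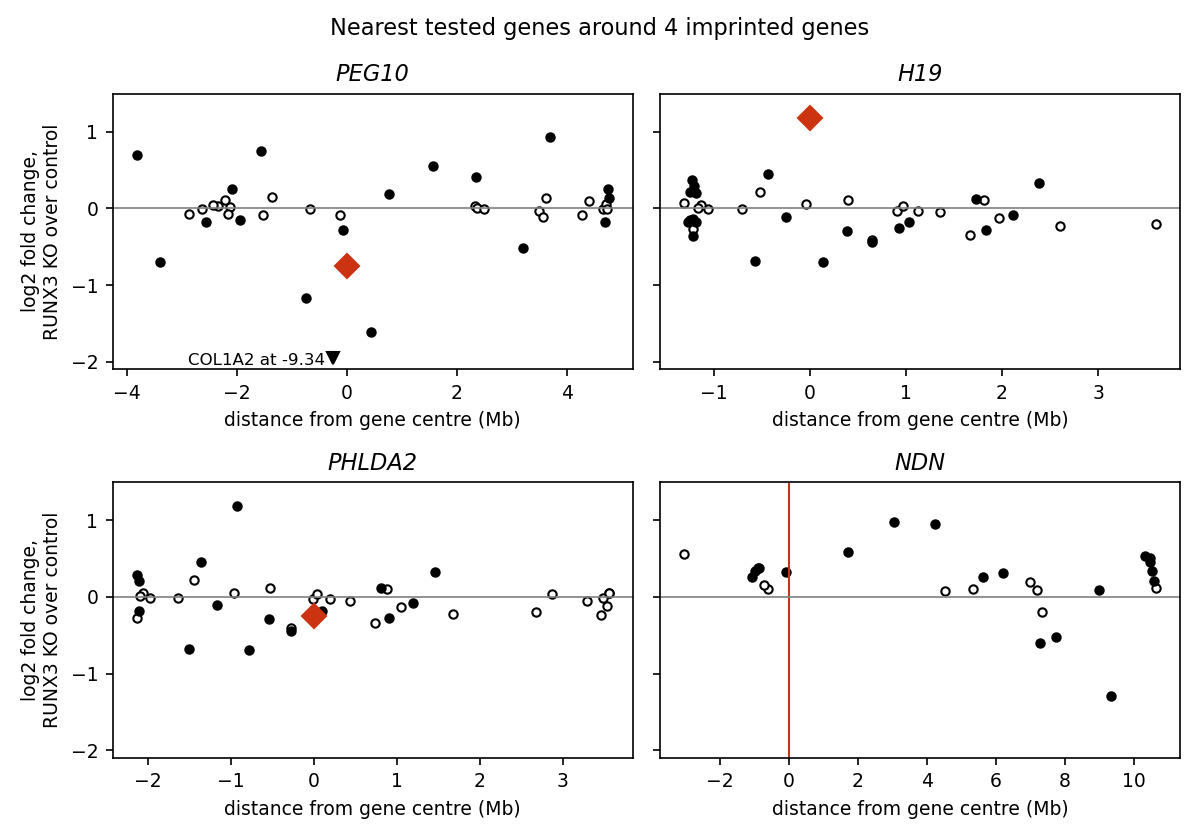
Log2 fold change of RUNX3 KO over control for the nearest tested genes around PEG10, H19, PHLDA2 and NDN, by distance from the centre of each gene in Mb. The member itself is marked, by a line for NDN, which was not tested. None of the 40 genes around H19 reaches its log2 fold change of 1.19, while 3 of the 40 around PEG10 lie at or below its value of -0.75.

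The other neighbourhoods showed where members moved apart from or with nearby genes. The 40 genes nearest to H19 had a median log2 fold change of -0.07, with 13 lower and 7 higher. Of all tested genes, 24.4% were lower and 24.5% higher. None of the 40 reached the value of H19. For PHLDA2 the median was -0.03, and 8 of the 40 had a log2 fold change at or below its own. Around GRB10 the median was -0.01, and 17 of the 40 were at or below its value.

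GRB10 encodes an adaptor that binds the insulin and insulin-like growth factor receptors and dampens their signals. Its imprinting depends on tissue and transcript. On hg19 it spans chr7:50657760-50861159 on the minus strand. It had 1279 and 1265 counts in control and 1142 and 1253 in RUNX3 KO cells. Levels were 108 ± 0.807 CPM (SD, n = 2) and 100 ± 5.28 CPM (SD, n = 2), and the groups did not overlap. The log2 fold change of -0.10 ± 0.0452 (SE) had a 95% interval of -0.19 to -0.01 and did not pass after adjustment over all genes (edgeR quasi-likelihood test, unadjusted p = 0.0288, adjusted p = 0.0577). It passed with library size alone (adjusted p = 0.0218), upper-quartile scaling (0.0218) and the stricter filter of 10 counts in each library (0.0388), and missed in the other 9 alternatives. Its neighbours FIGNL1, a DNA repair gene (log2 fold change 0.03), and COBL, an actin nucleator gene (-0.28), were not called either. DDC, an imprinted neighbour that encodes an enzyme of dopamine synthesis, was at 0 counts.

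NDN encodes necdin, a growth suppressor of neurons expressed from the paternal chromosome in the Prader-Willi region of chromosome 15. Its RefSeq promoter window, at chr15:23687256-23687555 on the minus strand of GRCh38.p14, is printed beside that of H19 because its CpG content is so different.
NDN: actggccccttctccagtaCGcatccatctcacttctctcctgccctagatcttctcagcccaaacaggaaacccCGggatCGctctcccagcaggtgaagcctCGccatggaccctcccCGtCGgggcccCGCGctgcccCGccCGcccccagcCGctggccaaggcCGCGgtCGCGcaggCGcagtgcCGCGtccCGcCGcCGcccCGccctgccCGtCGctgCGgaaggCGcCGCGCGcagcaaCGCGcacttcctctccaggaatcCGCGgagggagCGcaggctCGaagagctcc
It held 35 CpG, again in capitals, and 85.9% of all promoter windows held fewer. The ZFP57 letters TGCCGC occurred there and the RUNX letters did not.

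NDN, at chr15:23930547-23932452 on the minus strand of hg19, had 4 and 4 counts in control and 0 and 0 in RUNX3 KO cells. A count of 0 allows up to 3 counts, or 0.254 and 0.250 CPM in the RUNX3 KO libraries. Against a limit of 3 counts in each RUNX3 KO library, NDN was at least 1.35-fold lower. It was not tested, and with no filter its edgeR adjusted p was 0.0542. These counts did not reach the 30 per library required here to call a gene on, so NDN was not a switched gene.

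Other imprinted genes of the Prader-Willi region had at most 1 count in each library or were higher in RUNX3 KO cells. UBE3A, a ubiquitin ligase whose imprinting is confined to neurons, had 833 and 869 counts in control and 1293 and 1277 in RUNX3 KO cells, giving a log2 fold change of 0.58 ± 0.0482 (SE; edgeR quasi-likelihood test, adjusted p = 8.75e-19). MKRN3, a zinc finger protein that restrains the onset of puberty, had 124 and 98 against 141 and 139 counts, a log2 fold change of 0.32 ± 0.133 (SE; edgeR, adjusted p = 0.0385), and was not called in 7 of 12 alternatives. MAGEL2, a relative of NDN, had 0, 0, 1 and 0 counts, and ATP10A and IPW were at 0. The 28 tested genes counted around NDN had a median log2 fold change of 0.26, with 16 higher and 3 lower. Of all tested genes, 24.5% were higher and 24.4% lower. The part of this neighbourhood in the values of UBE3A and MKRN3 was not tested. SNRPN and SNURF were listed at 0 counts, but they share exons, 23.9% and 52.1% of their bases respectively, and a read on a shared base may be assigned to neither gene, so their 0 is not read as silence.

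Of the 10 members, 4 were off in both groups, with at most 3 counts in each library. By the same rule 42.5% of all 25559 symbols were off in both groups. MEG3, a maternally expressed long noncoding RNA with growth-suppressing activity (chr14:101245747-101327368, plus strand, hg19), PEG3, a zinc finger protein gene (chr19:57321445-57352096, minus strand), and MEST, a gene of the alpha/beta hydrolase fold family (chr7:130126012-130146306, plus strand), were at 0 counts in all 4 libraries, as were 30.9% of all symbols. The other 7 members had at least 1 count in some library, as had 69.1% of all symbols. PEG3 and MEST are expressed from the paternal chromosome. A count of 0 allows up to 0.250 to 0.254 CPM here. PLAGL1, a paternally expressed zinc finger factor that arrests the cell cycle (chr6:144261437-144385736, minus strand), had 1 and 1 counts in control and 2 and 2 in RUNX3 KO cells, and no fold change is given at this level. Exons shared with other genes can lose reads in counting. Of the exonic bases, 12.9% overlap ZIM2 in PEG3, 14.9% overlap other genes on either strand in MEST, and 4.51% overlap HYMAI in PLAGL1.

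Close imprinted neighbours of MEG3 and PEG3 were at or near 0 counts as well. Around MEG3, RTL1 and MEG8 were at 0 counts, DLK1, a paternally expressed Notch-like ligand, had 0, 1, 0 and 0, and DIO3, a deiodinase, had 0, 0, 1 and 0. Around PEG3, ZIM2, MIMT1 and USP29 were at 0. ZIM2 shares 41.2% of its exonic bases with PEG3, so its 0 is not read as silence. Farther along chromosome 19, ZNF331 fell slightly (log2 fold change -0.31, edgeR adjusted p = 6.34e-05) and NLRP2 rose (0.49, edgeR adjusted p = 1.18e-05). Around MEST, MESTIT1 was at 0, KLF14 had 2, 0, 1 and 1 counts, CPA4, a carboxypeptidase, had 0, 2, 4 and 2, and COPG2, a coatomer subunit, was expressed and not called (0.13, edgeR adjusted p = 0.256). HYMAI, beside PLAGL1, was at 0.

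The nearest tested gene beside a member that was off in both groups was often outside the imprinted lists. Beside MEG3, BEGAIN was lower (log2 fold change -0.55, edgeR adjusted p = 0.000899), as was PPP2R5C, a phosphatase subunit (-0.26, edgeR adjusted p = 2.10e-08). The 40 genes nearest to MEG3 had a median of -0.18, with 23 lower and 4 higher. Of all tested genes, 24.4% were lower and 24.5% higher. Beside PEG3, ZNF264 was lower (-1.14, edgeR adjusted p = 4.69e-07) and ZNF71 was not called (-0.18). Beside PLAGL1, LTV1 was slightly higher (0.14, edgeR adjusted p = 0.0148) and SF3B5 was not called (0.03). Beside MEST, TSGA14 was not called (-0.13).

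No member met the definition of a switch, at most 3 counts in each library of one group and at least 30 in each library of the other. Over all symbols, 22 genes (0.0861%) were on in control and off in RUNX3 KO cells and 5 (0.0196%) the reverse, together 0.106%. No member met it with on set at 10 or 100 counts or off at 10 counts either. NDN, with 4 counts against 0, and CDKN1C, with 16 summed counts against 5, came nearest. By this definition the members gave no on or off state that could mark a clone. At 4 counts against 0, a loss of NDN expression could not be told from a low level at this depth.

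**Figure D3:**
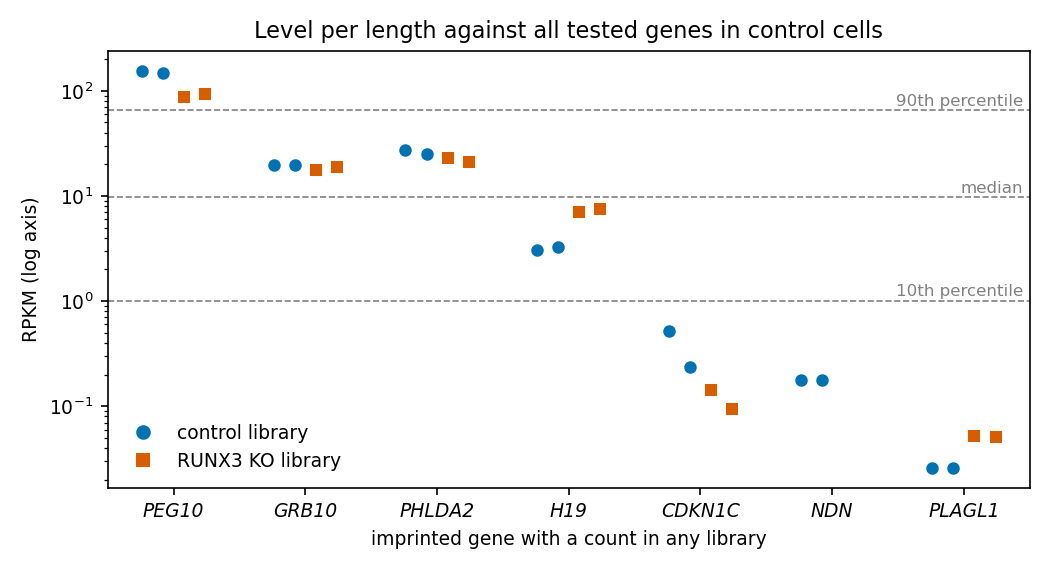
RPKM, CPM per kilobase of canonical transcript, on a log axis, for the 7 members with a count in any library, as points for each library, against the range of all tested genes in control cells. PEG10 lies at 152 RPKM in control cells, above the 90th percentile of 65.3, and CDKN1C at 0.382 RPKM lies below the 10th percentile of 1.01.

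Levels can be compared between genes only per length. On the scale of RPKM, which is CPM per kilobase of the canonical transcript, PEG10 was highest, at 156 and 149 in control and 87.7 and 93.1 in RUNX3 KO libraries, above 96.4% and 92.8% of tested genes with a length. PHLDA2 followed at 27.6 and 25.1 against 22.9 and 21.2, then GRB10 at 19.8 and 19.6 against 17.7 and 19.1. H19 came next at 3.06 and 3.29 against 6.97 and 7.52, which moved it from above 24.5% to above 42.5% of tested genes. CDKN1C, at a mean of 0.382 and 0.119 RPKM, lay far below. The order of these 5 genes was the same in every library, and no neighbours in it overlapped within a group. The median of tested genes was 9.79 RPKM in control and 9.68 RPKM in RUNX3 KO cells.

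A list of 64 other imprinted genes gives the wider picture. Of these, 55 were in the tables and 23 were tested, with 12 called lower, 5 higher and 6 not called in RUNX3 KO cells (edgeR quasi-likelihood test), that is 73.9% called against 48.9% of all tested genes. Their median log2 fold change was -0.24, against -0.0021 over all tested genes. This excess over the background depends on the method. DESeq2 called 3 lower and 3 higher, 26.1% of the list against 28.5% of all tested genes. With no filter edgeR called 25% against 27.8%, and without RUNX3 KO replicate 2 it called 2 lower and 3 higher, 20% against 20.1%. In these 3 settings the share was at the background. It stayed above it with limma-voom and with library size alone (69.6% against 48.7% in each), upper-quartile scaling (65.2% against 48.6%), DESeq2 size factors in edgeR (73.9% against 48.6%), 10 counts in every library (71.4% against 49%) and the replicate block (73.9% against 48.5%). It was slightly above without control replicate 1 (48% against 42.1%), control replicate 2 (46.2% against 41.5%) or RUNX3 KO replicate 1 (26.9% against 22.8%). Nothing particular to imprinted genes is read from these shares. In the list, 19 of 55 genes were at 0 counts in all libraries, 25 of 55 were off in both groups, and none was on in one group and off in the other.

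**Figure D4:**
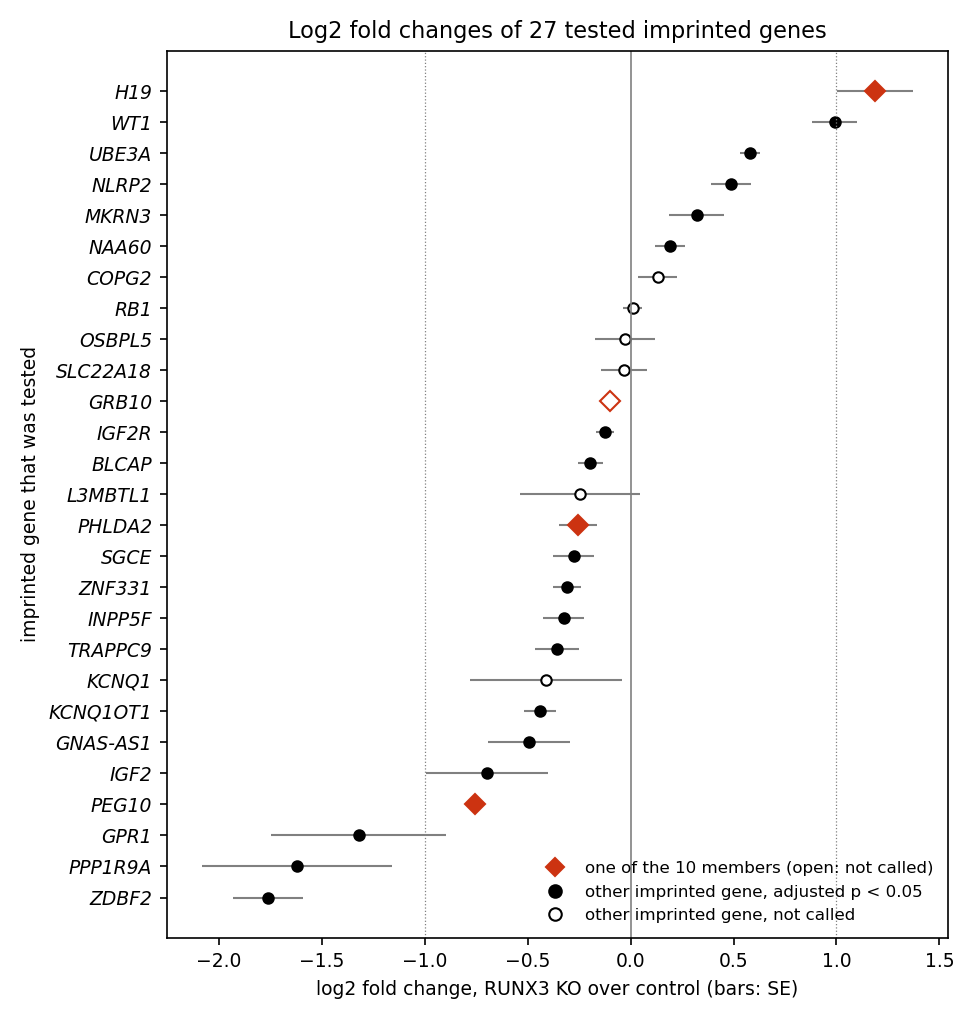
Log2 fold change of RUNX3 KO over control, with SE as bars, for the 4 tested members and the 23 other imprinted genes that were tested. H19, at 1.19, and WT1, at 0.99, lie farthest to the right, and ZDBF2, at -1.76, lies farthest to the left.

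ZDBF2, a zinc finger gene expressed from the paternal chromosome, fell the most, from 129 and 147 counts in control to 39 and 43 in RUNX3 KO cells, giving a log2 fold change of -1.76 ± 0.169 (SE; edgeR quasi-likelihood test, adjusted p = 1.14e-15). Its neighbour GPR1, a chemerin receptor, had 22 and 13 counts against 5 and 9, a log2 fold change of -1.32 ± 0.424 (SE; edgeR, adjusted p = 0.00677), and was not called in 5 of 11 alternatives. On the other side of ZDBF2, ADAM23 was not called (-0.01, edgeR adjusted p = 0.936). With PPP1R9A, these were the 3 of the 23 genes that were lower by at least 2-fold, and none was higher by as much. GPR1 and PPP1R9A passed the filter on low counts only through the control group, where they were high, and were not tested when 10 counts were required in every library, so ZDBF2 alone of the 3 does not depend on that filter. The largest rise of the list was in WT1, a zinc finger factor of kidney and gonad development, from 127 and 139 to 272 and 262 counts, a log2 fold change of 0.99 ± 0.108 (SE; edgeR quasi-likelihood test, adjusted p = 3.11e-13). Nearby, RCN1 (0.40), PAX6 (0.85) and EIF3M (0.25) were also called higher. Over the 40 tested genes nearest to WT1 the median was -0.03, with 15 lower and 11 higher. Of all tested genes, 24.4% were lower and 24.5% higher. The part of these neighbours in the result for WT1 was not tested. GNAS, which encodes a G protein subunit that most cells express, was listed at 2, 2, 3 and 11 counts, and its level is therefore not read.

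Factors known to set or keep imprints were mostly expressed, and none changed 2-fold. Of 16 listed, 12 were tested, with 4 lower, 2 higher and 6 not called, a share of 50% against 48.9% of all tested genes, which is the background. DNMT1, the maintenance DNA methyltransferase, had 9312 and 9242 counts in control and 6675 and 6928 in RUNX3 KO cells, giving a log2 fold change of -0.46 ± 0.0243 (SE; edgeR quasi-likelihood test, adjusted p = 1.15e-30). DNMT3B, a de novo DNA methyltransferase, had a log2 fold change of -0.43 ± 0.0643 (SE; edgeR, adjusted p = 2.02e-08). UHRF1, which guides DNMT1 to newly copied DNA, had a log2 fold change of 0.29 ± 0.0394 (SE; edgeR, adjusted p = 6.56e-10). These 3 calls held in all 12 alternatives. ZFP57, which binds methylated imprints, was at 0 counts in all libraries, as were DNMT3L and DPPA3, whereas its partner TRIM28 had 5976 to 6272 counts and a log2 fold change of 0.0085. DNA methylation itself was not measured in these libraries.

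Promoter windows were available for 6 of the 10 members, 20 windows in all. MEG3 had 3 overlapping windows with 17 to 19 CpG, each holding both the RUNX and the ZFP57 letters, and its RNA was at 0 counts in both groups. MEST had 5 windows with 13 to 25 CpG, 4 of which held the ZFP57 letters. GRB10 had 5 windows with 3 to 49 CpG, 1 with the ZFP57 letters and none with the RUNX letters. PLAGL1 had 5 windows with 2 to 39 CpG, of which 1 held the RUNX letters and another 1 the ZFP57 letters. Of the 20 windows, 4 held the RUNX letters and 10 the ZFP57 letters. Among all promoter windows the shares were 13.1% and 16.7%. Some windows of a gene overlap, so nothing is read from these totals. These letter matches are descriptions and do not mark bound sites.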

How the data were processed

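HGC-27 RNA was measured by RNA-seq in 2 control and 2 RUNX3 KO libraries. The authors deposited raw counts of reads per gene symbol, without normalization, 1 table per library. The paper's methods name STAR, hg19, GENCODE and featureCounts, whereas the submitters' processing notes name HISAT2 2.1.0, HTSeq, hg19 and bcl2fastq, and each table closes with 5 rows in the form of htseq-count. Which route made the tables, and the strand setting, is not given in the sources used here. The labels name MEM, TRIzol and a stranded poly(A) kit, and the paper RPMI, RNeasy and a sequencing provider. Rows without a gene held 25.9% to 28.1% of counts and stayed out of library sizes and tests.

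Groups were compared with edgeR 4.0.16 in R 4.3.3, using filterByExpr (minimum count 10, minimum total 15), which kept 12967 of 25559 symbols (50.7%), TMM scaling, the quasi-likelihood test without covariates, and p-values adjusted by Benjamini-Hochberg over every tested gene. The common dispersion was 0.000211. CPM used the TMM-scaled library size. RPKM divided CPM by the length of the canonical transcript in GENCODE on GRCh37, to which 21407 symbols were matched, 2042 of them by a RefSeq synonym. The steps were tested on simulated counts. Sequences came from RefSeq (GRCh38.p14). Intervals and limits for low counts cover counting error only.

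The members and gene lists were chosen with earlier results of these data known. The rule for named genes took all members, RUNX3, other imprinted genes at a member's locus or with a fold of at least 2, the 3 imprint-keeping factors with the largest change, the nearest tested gene on each side of a member, and the 2 genes closest in level to a member called with a fold of at least 2. Other genes named were chosen after their values were seen. Alternatives were other scalings, DESeq2 1.42.0, limma-voom (limma 3.58.1), other filters, a replicate block, other criteria for calls and for on or off, and the omission of each library.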

Additional observations from a re-analysis of the deposited data

How the results depend on the processing

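Directions of H19, PEG10 and PHLDA2 held under every alternative run. Members lower in RUNX3 KO cells numbered 2, and 1 with DESeq2 or with no filter, 0 by the study's criteria or with adjusted p and at least 2-fold, and 1 to 3 with one library left out. They numbered 3, with GRB10, under library size alone, upper-quartile scaling and at least 10 counts in every library. With control replicate 2 left out the third was CDKN1C, which passed the filter only through the lone control library and is given no weight. For all tested genes, 3158 lower and 3183 higher became 1863 and 1829 with DESeq2, 520 and 274 by the study's criteria, 512 and 274 with adjusted p and at least 2-fold, and 1378 to 2806 and 1285 to 2745 with one library left out, lowest without RUNX3 KO replicate 2 and 1531 and 1483 without RUNX3 KO replicate 1. Other imprinted genes, 12 lower and 5 higher, became 3 and 3 with DESeq2, 6 and 3 with no filter, 3 and 0 under either 2-fold rule, and 2 to 8 and 3 to 4 with one library left out. Upper-quartile scaling gave 3 higher. Imprint-keeping factors called, 6, became 3 with DESeq2 or no filter, 0 under either 2-fold rule, and 3 to 4 with one library left out. Members switched on or off numbered 0 in every setting. For single imprinted genes, keepers and RUNX3, 395 alternative values kept their side of the threshold, 80 fell short of it, 3 passed it and 0 called values reversed. Among genes called in neither setting, 15 values of 7 genes, such as L3MBTL1 and SLC22A18, had the other sign. The cause of these changes was not tested, except that leaving out a library leaves 3 libraries and a lone library assumed to vary like the other group. Depth limits statements on genes under about 10 counts.

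Equal replicate numbers in the 2 groups were not shown to pair libraries, since deviations of same-numbered libraries correlated at 0.0257 over genes. With the replicate block, 3143 genes were lower and 3143 higher, with 2 members lower and 1 higher, 12 and 5 other imprinted genes lower and higher, and 6 imprint-keeping factors called, so the block changed no call of a member.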
